A study of Mus musculus with 9 samples.

Results

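The 7 genes described here encode the chaperones of the mitochondrial matrix and Lonp1, the matrix protease that works beside ClpXP. They are Hspd1, Hspe1, Hspa9, Dnaja3, Trap1, Grpel1 and Lonp1, taken by gene symbol from a table of 54532 genes. All 7 had a mean above 1 FPKM (fragments counted relative to gene length and library size) over the 9 libraries, so all 7 were among the 17266 genes tested. RNA was sequenced from mouse material labelled as male germ cells and titled spermatocytes, at PD 35. There were 3 wild-type control libraries, 3 libraries from ClpP conditional knockouts (ClpP cKO) and 3 from ClpX conditional knockouts (ClpX cKO). Stra8-Cre, whose promoter is active in germ cells from the spermatogonial stage on, deleted Clpp or Clpx. The controls are labelled WT with no statement on whether they carried Cre. The labels name neither a way of isolating cells nor the animals behind each library, and p-values therefore refer to the spread among the libraries, which may be technical.

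Matrix proteins are made in the cytosol, pulled through the inner membrane unfolded, and folded or degraded inside. Hspa9, the mitochondrial Hsp70 also called mortalin, drives the import and binds the incoming chain. Dnaja3, a DnaJ protein, stimulates its ATPase, and Grpel1, the nucleotide exchange factor, resets it. Hspd1 (Hsp60) then forms the folding chamber that Hspe1 (Hsp10) closes as its lid. Trap1 is the Hsp90 relative of the matrix. Lonp1 is an ATP-dependent protease of misfolded and oxidised matrix proteins. ClpX unfolds substrates and feeds them to the ClpP protease, so Lonp1 and ClpXP share a compartment. In mammalian cells a rise of Hsp60, Hsp10 and matrix proteases is the classic readout of the mitochondrial unfolded protein response.

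Sequences around the transcription starts are shown first because Hspd1 and Hspe1 are transcribed away from each other from a common stretch of chromosome 1, and because Lonp1, which rose, and Trap1, which did not pass the test, carry the same short element. The windows run from 250 bases before to 50 bases after the start and come from RefSeq on GRCm38.p6, which matched 6 of the 7 genes with 7 windows. Capitals mark matches, on either strand, to 5 motifs that were chosen after the windows had been seen. These are the heat shock element (TTC, GAA and TTC with 2 bases of any kind between neighbours), the CRE core TGACGT, the C/EBP-CHOP core TGCAAT, the C/EBP-ATF element TGATGNAA and the NRF1 site (GCGCA, any base, GCGC).
Hspd1, chr1:55088194-55088493, minus strand: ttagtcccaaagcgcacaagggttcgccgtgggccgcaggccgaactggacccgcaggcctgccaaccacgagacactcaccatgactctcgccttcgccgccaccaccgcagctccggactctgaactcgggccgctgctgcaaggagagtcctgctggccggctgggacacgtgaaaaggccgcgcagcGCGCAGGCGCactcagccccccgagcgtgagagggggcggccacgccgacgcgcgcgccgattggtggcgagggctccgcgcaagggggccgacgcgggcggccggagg
Hspe1, chr1:55087898-55088197, plus strand: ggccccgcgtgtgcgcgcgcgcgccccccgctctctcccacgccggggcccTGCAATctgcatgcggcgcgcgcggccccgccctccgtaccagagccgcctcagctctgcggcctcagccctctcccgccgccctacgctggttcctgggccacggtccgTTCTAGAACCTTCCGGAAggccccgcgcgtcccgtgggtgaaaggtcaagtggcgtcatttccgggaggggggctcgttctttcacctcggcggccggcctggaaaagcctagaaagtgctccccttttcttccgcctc
Lonp1, chr17:56626854-56627153, minus strand: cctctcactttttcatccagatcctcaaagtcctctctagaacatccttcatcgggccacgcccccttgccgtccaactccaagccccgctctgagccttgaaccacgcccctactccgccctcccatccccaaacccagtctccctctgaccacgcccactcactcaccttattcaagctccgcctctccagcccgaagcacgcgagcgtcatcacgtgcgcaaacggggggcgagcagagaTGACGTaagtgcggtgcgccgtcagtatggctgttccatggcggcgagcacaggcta
Trap1, chr16:4077761-4078060, minus strand: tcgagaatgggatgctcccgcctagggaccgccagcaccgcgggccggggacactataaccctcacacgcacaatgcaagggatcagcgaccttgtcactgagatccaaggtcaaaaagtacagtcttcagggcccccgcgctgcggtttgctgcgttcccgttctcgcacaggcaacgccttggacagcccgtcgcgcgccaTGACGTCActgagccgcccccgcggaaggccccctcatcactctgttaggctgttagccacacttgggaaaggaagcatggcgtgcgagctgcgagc

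The Hspe1 window held the heat shock element in 2 overlapping matches, at -89 on the plus strand and at -84 on the minus strand (first base of the match, counted from the start). This element occurred in 198 of all 32851 windows of the table, or 0.603%, and among the 6 members searched only in this stretch. A second RefSeq start of Hspd1 has a window that shares 285 bases with that of Hspe1, while the window printed for Hspd1 shares 4. That second window, not printed, held the heat shock element at -144 and -139 and TGCAAT at -22. The core TGCAAT lay at -199 of Hspe1 (8.4% of all windows hold it). The CRE core TGACGT began at -7 of Lonp1 and at -47 and -45 of Trap1, where both strands match (7.51% of windows). The NRF1 site lay at -59 of Hspd1 and at -48 and 38 of Dnaja3 (4.6% of windows). TGATGNAA (3.97%) had no match in the windows searched. These are matches of letters, and binding was not measured in the files used here. Hspa9 was not searched.

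The deletions were visible in the RNA of the targeted genes. Clpp stood at 9.36, 8.46 and 9.36 FPKM in the control libraries, 5.16, 6.15 and 3.69 after ClpP deletion and 12.8, 12.5 and 14.1 after ClpX deletion. Clpx stood at 59.3, 55.7 and 54.7 FPKM in the control libraries, 40.3, 36.2 and 36.0 after ClpP deletion and 15.6, 11.3 and 13.2 after ClpX deletion. Each knockout therefore had less RNA of its own target than any control, and Clpx was also lower in every ClpP cKO library. In limma Clpp fell by 0.77 on the log2 scale in ClpP cKO (adjusted p = 0.0088), and Clpx fell by 2.01 in ClpX cKO (adjusted p = 0.00016) and by 0.58 in ClpP cKO (adjusted p = 0.0088).

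The libraries differed in much more than these genes. Reads recovered per library ranged from 14334436 to 17021685. On the first principal component (66.5% of the variance) Control 3 and ClpX cKO 1 stood apart from the other libraries of their groups, towards ClpP cKO. The summed level of 12 elongating spermatid markers was 8214 to 17890 FPKM in the controls, 4754 to 5650 in ClpP cKO and 1760 to 2677 in ClpX cKO, and all 12 fell in both knockouts. The summed level of 13 Sertoli cell markers was 510 to 537, 735 to 819 and 928 to 1303 FPKM, and all 12 of those tested rose in both. Spermatogonia markers (13) summed to 134 to 141, 183 to 204 and 208 to 256 FPKM, with 9 and 11 called higher, and immune markers to 41.2 to 48.1, 53.8 to 77.8 and 79.9 to 97.4. No marker list had a gene at 0 in every library, so markers of spermatids and of somatic cells were present in material titled spermatocytes. In such bulk material fewer cells of a type and less RNA per cell cannot be told apart, and the part of these cell types in the members' changes was not tested. The library-size denominator behind the deposited FPKM was 0.897 to 0.951 of each control's own read total. It was 1.04 to 1.05 in ClpP cKO and 1.05 to 1.09 in ClpX cKO. Median-of-ratios factors, which scale a library by its typical gene, were 1.01 in every library. The deposited values therefore already stood on that scale. Ratios within a library, which need no scaling, are given below as well.

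Against the controls, 3 of the 7 genes rose in ClpP cKO and 3 rose in ClpX cKO, Hspd1, Lonp1 and Dnaja3 each time, and none was called lower. A gene was called at an adjusted p under 0.05 in limma on log2(FPKM + 1), fitted to all 17266 genes. In ClpP cKO 44.7% of all tested genes were called, 20.7% higher and 24% lower, and in ClpX cKO 65.6% were called, 32.1% higher and 33.5% lower. The count of 3 in 7 is to be read beside those shares. All 7 genes encode proteins, and of the 12827 tested protein-coding genes 25.8% were called higher in ClpP cKO and 40.1% in ClpX cKO. The count in ClpX cKO is near the latter share. The same 3 genes had every knockout library above every control in both knockouts, as 31.2% of all tested genes had in ClpP cKO and 34.8% in ClpX cKO. None of the 7 lay wholly below the controls in ClpP cKO (30.5% of all tested genes did) and 1, Hspa9, did in ClpX cKO (35%). The median change of the 7 was 0.17 in ClpP cKO and 0.18 in ClpX cKO on the log2 scale, against 0.01 and -0.00 over all tested genes. A median near 0 over all genes is largely set by the scaling of the deposited values. Both counts were also 3 without Control 3 and ClpX cKO 1. Because both knockouts were compared with the same 3 controls, the 2 results are not independent.

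**Figure D1:**
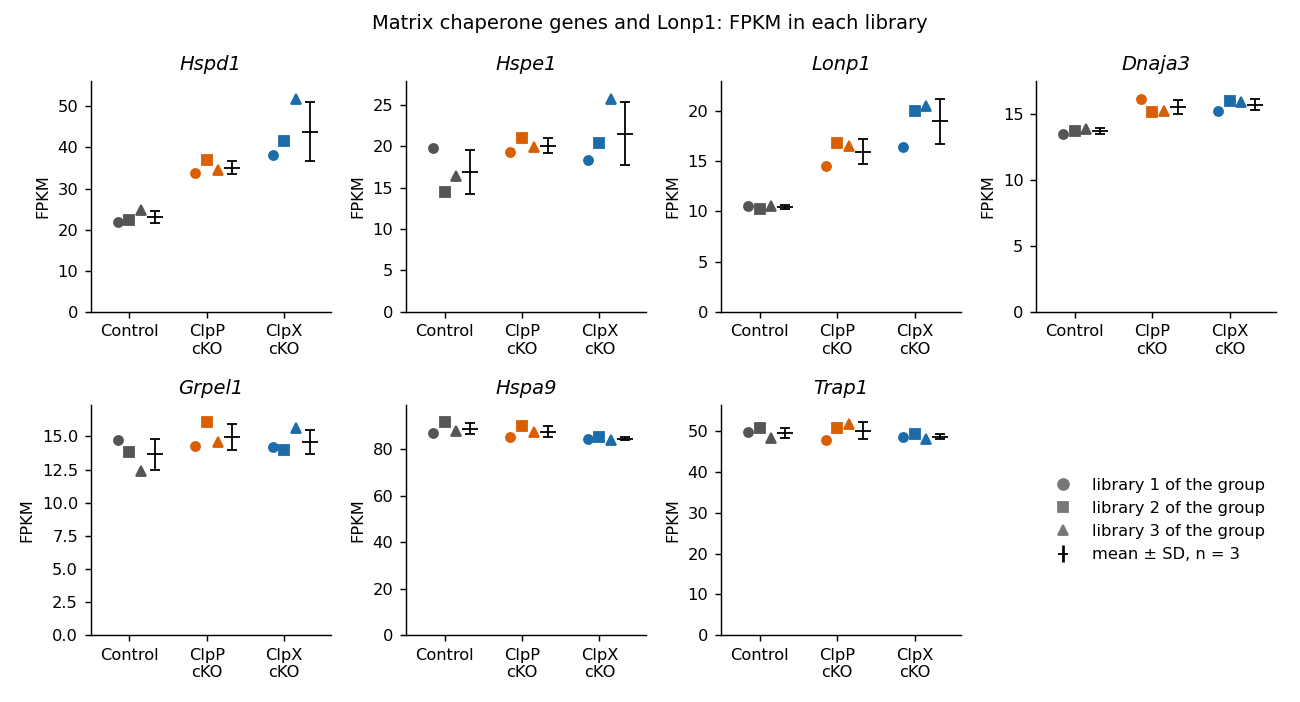
FPKM of the 7 genes (y axis, each panel from 0) in the 3 control, 3 ClpP cKO and 3 ClpX cKO libraries, with 1 symbol per library and the mean ± SD beside each group. For Hspd1, Lonp1 and Dnaja3 every knockout library lies above every control, whereas the Hspe1, Grpel1 and Trap1 panels overlap.

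Hspd1, the chaperonin (chr1:55077835-55088243, minus strand), rose in both knockouts by an amount close to that of Lonp1. Its level was 21.9, 22.4 and 24.7 FPKM in the control libraries, 33.8, 36.9 and 34.6 after ClpP deletion and 38.1, 41.5 and 51.9 after ClpX deletion. The 3 groups did not overlap, and ClpX cKO 3 was the highest library. From a control mean of 23.0 ± 1.46 FPKM (SD, n = 3) it rose 1.53-fold to 35.1 ± 1.59 in ClpP cKO (log2 change 0.59, SE 0.11, limma adjusted p = 0.0089). In ClpX cKO it rose 1.90-fold to 43.8 ± 7.18 (0.89, SE 0.11, limma adjusted p = 0.00047). It was counted with 828 to 2338 reads per library. The 2 changes stood at the 96.5th and 96.4th percentile of all tested genes. Of the 5 processed pseudogenes of Hspd1 in the table, 4 were below 1 FPKM in every library and the highest, Hspd1-ps3, reached 3.08 FPKM in Control 1.

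Hspe1, the lid of the same chamber (chr1:55088132-55091307, plus strand), did not pass the test in either knockout. It was measured at 19.9, 14.5 and 16.4 FPKM in the control libraries, 19.3, 21.1 and 19.9 after ClpP deletion and 18.4, 20.5 and 25.8 after ClpX deletion. Control 1 lay among the knockouts, and the other 2 controls lay below all of them. The group means were 16.9 ± 2.71, 20.1 ± 0.878 and 21.5 ± 3.80 FPKM, with log2 changes of 0.25 (SE 0.14, limma adjusted p = 0.17) and 0.33 (SE 0.14, limma adjusted p = 0.062). The 95% intervals ran from -0.07 to 0.56 and from 0.02 to 0.64. The fitted change of Hspd1 in ClpX cKO (0.89) lies outside the second. The interval of Hspd1, 0.640 to 1.141, overlaps that of Hspe1 (upper end 0.643). Such an overlap does not test whether the 2 changes differ, and their ratio within each library is given below. Single libraries decided the ClpX cKO call, which was made without Control 1 (0.44, limma adjusted p = 0.025) or without ClpX cKO 1 (0.43, adjusted p = 0.025). Without ClpX cKO 3 the change was 0.20 (limma adjusted p = 0.20), and over all 19 alternatives the adjusted p ran from 0.0062 to 0.20. Hspe1 had the fewest reads of the 7, from 327 to 648 per library, and its 6 pseudogenes reached at most 0.929 FPKM.

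Within a library, the ratio of Hspd1 to Hspe1 separated the 3 groups. It was 1.10, 1.55 and 1.51 in the control libraries, 1.75, 1.75 and 1.74 after ClpP deletion and 2.07, 2.03 and 2.01 after ClpX deletion. The 3 libraries of each knockout lay close together (SD 0.00637 and 0.0294), the groups did not overlap, and Control 1 was the lowest of all. The geometric mean ratio was 1.27-fold that of the controls in ClpP cKO and 1.49-fold in ClpX cKO. The first value rests on Control 1, without which the log2 difference fell from 0.35 to 0.19 in ClpP cKO (0.57 and 0.42 in ClpX cKO). An exact two-sided permutation test of 3 against 3 libraries gave p = 0.10 for each, the smallest it can give, and p = 0.175 after adjustment over 21 comparisons of 7 ratios. The level of the ratio depends on the gene length used: the table counts 1474 bases for Hspe1, whereas its longest coding transcript in GENCODE M21 has 774. With the transcript lengths the group means of the ratio were 0.793, 0.999 and 1.17. The 2 genes share 112 exon bases on opposite strands, and whether the counting used strand is not given in the sources used here.

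Lonp1, the protease (chr17:56614297-56626887, minus strand), rose in both knockouts. Which of Lonp1 and Hspd1 changed more in ClpP cKO depended on the scale, with 0.57 and 0.59 on log2(FPKM + 1) but 1.53-fold for both in mean FPKM. Its level was 10.6, 10.2 and 10.5 FPKM in the control libraries, 14.6, 16.9 and 16.5 after ClpP deletion and 16.4, 20.0 and 20.6 after ClpX deletion. The controls lay close together, and all 6 knockout libraries stood above them, the lowest at 14.6 FPKM. From 10.4 ± 0.181 FPKM it rose 1.53-fold to 16.0 ± 1.24 in ClpP cKO (log2 change 0.57, SE 0.09, limma adjusted p = 0.0086) and 1.82-fold to 19.0 ± 2.25 in ClpX cKO (0.80, SE 0.09, limma adjusted p = 0.00045). By the table's gene lengths Lonp1 had the lowest control level of the 7 genes, whereas by transcript length (GENCODE M21) it stood at 15.5 and Grpel1 at 13.6. In ClpX cKO it stood, by either length, above Hspa9's cofactors Dnaja3 and Grpel1. Its reads numbered 627 to 1535 per library. Its gene lies 363 kb from Clpp on chromosome 17. Clpp itself rose in ClpX cKO (0.49, limma adjusted p = 0.014).

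The proportion of Lonp1 to Hspd1 had like means in the 3 groups. The Lonp1 to Hspd1 ratio averaged 0.455 ± 0.0279 in the control libraries, 0.455 ± 0.0238 after ClpP deletion and 0.437 ± 0.0430 after ClpX deletion (SD, n = 3), and the groups overlapped (exact permutation p = 0.90, 0.60 and 0.70 for the 3 comparisons). With 3 libraries a group these p-values do not show that the proportion was unchanged. Relative to Clpp, the protease subunit, Lonp1 went from 1.15 ± 0.0481 in the controls to 3.35 ± 0.981 in ClpP cKO and 1.45 ± 0.161 in ClpX cKO. Relative to Clpx it went from 0.185 ± 0.00720 to 0.429 ± 0.0584 and 1.46 ± 0.366. None of these 4 sets of knockout ratios overlapped the controls (exact permutation p = 0.10 each, adjusted p = 0.175). Each denominator is the deleted gene in 1 of the knockouts, so the size of these ratios is set partly by the deletion.

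**Figure D2:**
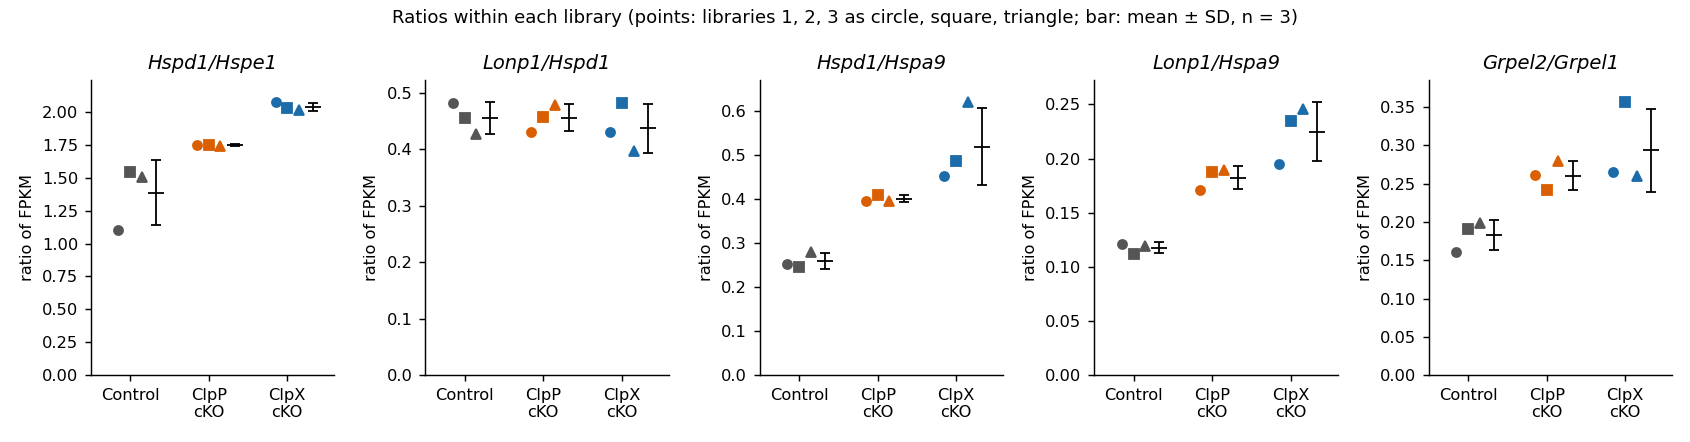
Ratios of FPKM between genes of the same library (y axis, from 0), with 1 symbol per library and the mean ± SD per group. Hspd1/Hspe1, Hspd1/Hspa9 and Lonp1/Hspa9 step up from control to ClpP cKO to ClpX cKO, with ClpX cKO 1 just above the ClpP cKO libraries for Lonp1/Hspa9, and Lonp1/Hspd1 stays near 0.45.

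In the Hsp70 machine, Dnaja3 passed the test and Hspa9 and Grpel1 did not. Whether their changes differ is left to the ratios given below, for which 3 against 3 libraries cannot pass the threshold. Hspa9, the most abundant of the 7 (chr18:34937414-34954357, minus strand), was measured at 86.8, 91.4 and 87.9 FPKM in the control libraries, 85.3, 90.0 and 87.3 after ClpP deletion and 84.4, 85.2 and 83.8 after ClpX deletion. It was not called in either knockout, with changes of -0.02 (95% interval -0.15 to 0.11, limma adjusted p = 0.80) and -0.07 (-0.20 to 0.06, adjusted p = 0.30). All 3 ClpX cKO libraries were below every control, whereas ClpP cKO overlapped the controls. This was the best counted of the genes, with 4709 to 5864 reads per library.

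Dnaja3, which stimulates the ATPase of Hspa9 (chr16:4639989-4707695, plus strand), had the smallest of the called changes. It was measured at 13.5, 13.7 and 13.9 FPKM in the control libraries, 16.2, 15.2 and 15.3 after ClpP deletion and 15.3, 16.0 and 15.9 after ClpX deletion. The lowest knockout library was above the highest control. It rose from 13.7 ± 0.210 to 15.5 ± 0.553 FPKM in ClpP cKO (log2 change 0.17, SE 0.06, limma adjusted p = 0.040) and to 15.7 ± 0.397 in ClpX cKO (0.18, SE 0.06, adjusted p = 0.018). These changes sit at the 63.2nd and 60.8th percentile of all tested genes. The ClpP cKO call was lost without any 1 of the 3 controls, any 1 of the 3 ClpP cKO libraries or ClpX cKO 2, with changes of 0.14 to 0.18 and limma adjusted p of 0.055 to 0.12. It was also lost without a filter on low values (adjusted p = 0.055) and with the replicate number added to the model as a block. The ClpX cKO call was lost without Control 1 (limma adjusted p = 0.062), Control 2 (0.050) or ClpX cKO 2 (0.058). Over all 19 alternatives the limma adjusted p of Dnaja3 ran from 0.0044 to 0.12 in ClpP cKO and from 0.00071 to 0.062 in ClpX cKO. Dnaja3 shares 160 exon bases with Vasn, a gene on the same strand that itself rose (0.55 and 0.95, limma adjusted p = 0.014 and 0.00059), and how reads in the shared bases were counted is not given in the sources used here.

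Grpel1, the exchange factor (chr5:36464998-36474080, plus strand), was not called. Its level was 14.7, 13.8 and 12.4 FPKM in the control libraries, 14.2, 16.0 and 14.5 after ClpP deletion and 14.2, 14.0 and 15.6 after ClpX deletion, with all 3 groups overlapping. The changes were 0.12 (95% interval -0.07 to 0.31, limma adjusted p = 0.24) and 0.09 (-0.10 to 0.28, adjusted p = 0.35). Its exons share 411 bases with Tada2b on the opposite strand, which fell in both knockouts (-0.27 and -0.34, limma adjusted p = 0.033 and 0.0072). By contrast Grpel2, the second exchange factor of the matrix, rose from 2.37, 2.63 and 2.46 FPKM in the controls to 3.71, 3.88 and 4.06 in ClpP cKO and 3.76, 4.98 and 4.06 in ClpX cKO (log2 change 0.49 and 0.59, limma adjusted p = 0.0099 and 0.0011). The Grpel2 to Grpel1 ratio, chosen after the values were seen, was 0.183 ± 0.0195 in the control libraries, 0.260 ± 0.0190 after ClpP deletion and 0.293 ± 0.0539 after ClpX deletion. By the table's lengths, Grpel1 was the more abundant in all 9 libraries.

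Trap1, the matrix Hsp90 (chr16:4039971-4077827, minus strand), was not called in either knockout. The levels were 49.6, 50.7 and 48.2 FPKM in the control libraries, 47.8, 50.6 and 51.7 after ClpP deletion and 48.4, 49.2 and 47.9 after ClpX deletion. The groups overlapped, and the changes were 0.02 (95% interval -0.11 to 0.14, limma adjusted p = 0.84) and -0.03 (-0.16 to 0.10, adjusted p = 0.68). On chromosome 16 it lies 562 kb from Dnaja3.

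Setting the rising genes against Hspa9 of the same library, a choice made after the values were seen and therefore given without a test, removes the scaling between libraries. Hspd1 over Hspa9 was 0.259 ± 0.0186 in the control libraries, 0.401 ± 0.00766 after ClpP deletion and 0.519 ± 0.0883 after ClpX deletion. Lonp1 over Hspa9 was 0.118 ± 0.00518, 0.182 ± 0.0103 and 0.225 ± 0.0268. Neither ratio overlapped between any 2 groups. Among the ratios planned, Hspa9 over Dnaja3 was lower in both knockouts without overlap (6.47 ± 0.172, 5.64 ± 0.335 and 5.37 ± 0.133, exact permutation p = 0.10, adjusted p = 0.175). Hspa9 over Grpel1 overlapped (6.53 ± 0.602, 5.87 ± 0.224 and 5.80 ± 0.383, exact permutation p = 0.30, adjusted p = 0.42). Trap1 over Hspa9 differed by less than 3% between group means (0.558 ± 0.0120, 0.572 ± 0.0180 and 0.574 ± 0.00255), although all 3 ClpX cKO libraries lay above the controls (exact permutation p = 0.10, adjusted p = 0.175).

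**Figure D3:**
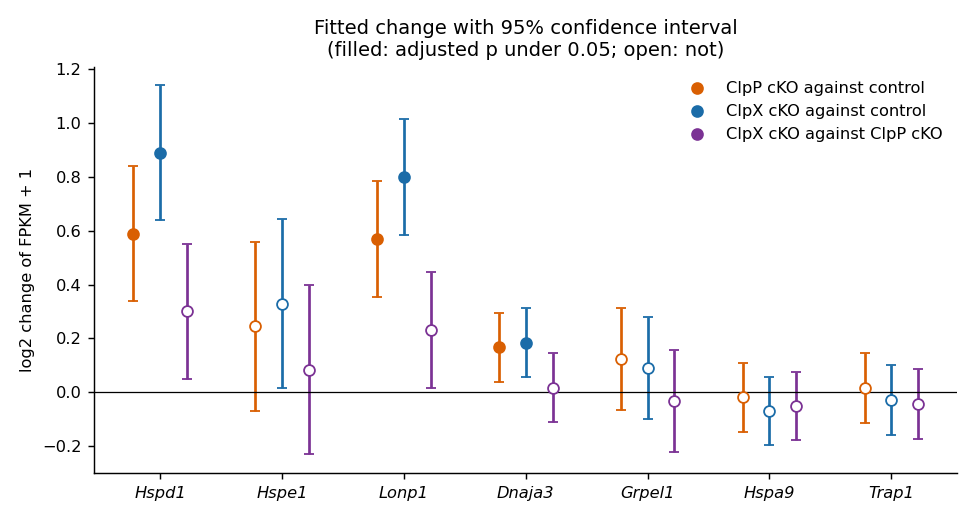
Fitted log2 change of FPKM + 1 (y axis) with its 95% confidence interval for each gene in the 3 comparisons, filled where the adjusted p was under 0.05. Hspd1 and Lonp1 lie between 0.57 and 0.89 against control, Dnaja3 at 0.17 and 0.18, and the intervals of Hspa9, Trap1 and Grpel1 include 0.

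Between the knockouts, ClpX cKO against ClpP cKO, 0 of the 7 genes was called by limma, where 18 of all tested genes were (0.104%). At an unadjusted p under 0.05 the count was 2 of 7, Hspd1 and Lonp1, where 27.8% of all tested genes had such a p, so the count is near the background. Limma voom on the recovered reads called 0 of the 7 and 4.80% of all genes. Hspd1 was higher in ClpX cKO by 0.30 (95% interval 0.05 to 0.55, limma adjusted p = 0.13) with no overlap of the libraries (29.9% of all tested genes had none, in either direction), and Lonp1 by 0.23 (0.02 to 0.45, adjusted p = 0.16) with ClpX cKO 1 inside the ClpP cKO range. Without ClpX cKO 1 both were called (0.39 and 0.33, limma adjusted p = 0.028 and 0.018), in a fit that called 4758 of all genes, 27.6%. Leaving out Control 3 as well gave adjusted p of 0.027 and 0.022. Without ClpX cKO 3, in turn, the differences were 0.18 and 0.17, and without ClpP cKO 1 that of Lonp1 was 0.17. Over all 19 alternatives the limma adjusted p of this comparison ran from 0.027 to 0.33 for Hspd1 and from 0.018 to 0.42 for Lonp1. The other 5 genes differed by -0.05 to 0.08, and Hspa9 was the gene whose ClpX cKO libraries were all lower (-0.05, limma adjusted p = 0.57).

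By the table's gene lengths, the order of the levels was Hspa9, Trap1, Hspd1, Hspe1, Dnaja3, Grpel1 and Lonp1 in the controls. By the length of the longest coding transcript, Hspe1 (32.2) stood above Hspd1 (25.1) and Lonp1 (15.5) above Grpel1 (13.6), with Dnaja3 at 20.3. The order of these genes therefore turned with the length used, while Hspa9 and Trap1 came first by both. By the table's lengths Dnaja3 and Grpel1, at 13.7 and 13.6 FPKM, did not differ beyond their spread, and Hspe1 had a single library, Control 2, within the range of those 2. Among 12827 tested protein-coding genes Hspa9 ranked 617th, Trap1 1338th, Hspd1 2882nd and Lonp1 5198th. In ClpX cKO the order by the table's lengths was Hspa9, Trap1, Hspd1, Hspe1, Lonp1, Dnaja3 and Grpel1, with 1 library of Hspd1 (51.9 FPKM) above and 2 below the range of Trap1 (47.9 to 49.2). The sum of the 7 genes was 214 to 217 FPKM in the controls, 231 to 247 in ClpP cKO and 235 to 261 in ClpX cKO.

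The other chaperones and cofactors of mitochondria, a list of 15 genes, moved in both directions. For this and the next lists, the background is that of the 12827 tested protein-coding genes 25.8% were called higher and 23.5% lower in ClpP cKO, and 40.1% and 30.5% in ClpX cKO. In ClpP cKO 7 rose, 3 fell and 5 were not called (median 0.22), and in ClpX cKO 7 rose, 4 fell and 4 were not called (median 0.26). Besides Grpel2, Dnlz, the partner that keeps Hspa9 soluble, rose from 3.25 ± 0.385 to 5.10 ± 0.149 and 5.22 ± 0.594 FPKM (0.52 and 0.55, limma adjusted p = 0.0089 and 0.0014). Ttc19, linked to assembly of respiratory complex III, rose by 0.33 and 0.45. Clpb, the disaggregase of the intermembrane space, fell from 53.4 ± 14.5 to 25.4 ± 2.19 and 15.5 ± 3.23 FPKM (-1.01 and -1.70, limma adjusted p = 0.010 and 0.00047). Dnajc15, a DnaJ protein of the import motor, fell as well (-0.39 and -0.59). The elongating spermatid markers fell in the same libraries, and their part in the fall of Clpb was not tested.

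Of 18 other mitochondrial proteases, 5 rose and 8 fell in ClpP cKO and 7 rose and 7 fell in ClpX cKO, with medians of -0.03 and 0.04. The shares called higher are near those of all protein-coding genes (25.8% and 40.1%). The 8 decreases in ClpP cKO lie well above the share called lower there (23.5%), and the 7 in ClpX cKO are nearer to theirs (30.5%). The deleted genes are among the 18, and both Clpp and Clpx are among the decreases in ClpP cKO. Mipep, the peptidase that trims imported precursors, fell (-0.67 and -1.08, limma adjusted p = 0.0098 and 0.00047). Htra2, a protease of the intermembrane space, rose in both knockouts (0.53 and 0.60, limma adjusted p = 0.021 and 0.0065), as did Lactb, a serine protease of that space (0.43 and 0.74, adjusted p = 0.016 and 0.00070).

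**Figure D4:**
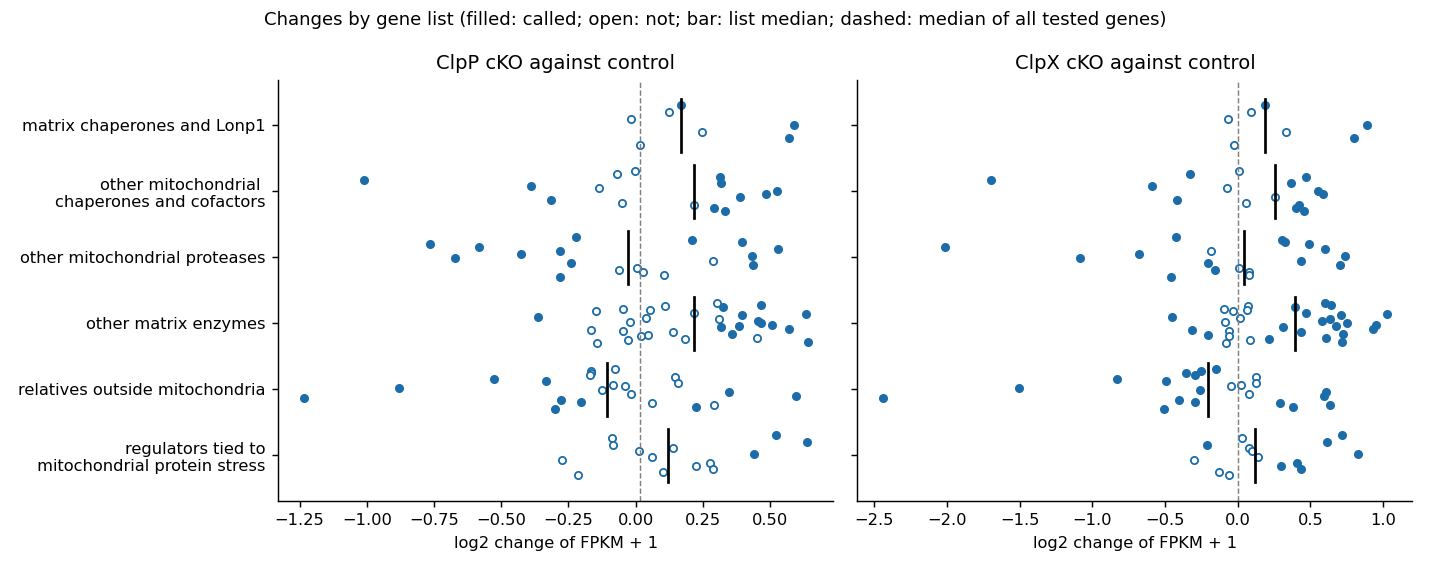
Log2 change of FPKM + 1 (x axis) of every tested gene in 6 lists (y axis), against control, for ClpP cKO on the left and ClpX cKO on the right, with axes of different range. The 7 members have medians of 0.17 and 0.18, the other matrix enzymes 0.22 and 0.39, and the relatives outside mitochondria -0.11 and -0.20.

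Enzymes of the matrix that are neither chaperones nor proteases, 31 genes mostly of the citric acid cycle, fatty acid oxidation and amino acid breakdown, rose more often than they fell. In ClpP cKO 12 rose, 1 fell and 18 were not called (median 0.22), and in ClpX cKO 18 rose, 3 fell and 10 were not called (median 0.39). Glud1, glutamate dehydrogenase, rose by 0.63 and 1.03 (limma adjusted p = 0.0086 and 0.00045). Ivd, of leucine breakdown, rose by 0.51 and 0.95, Idh3a, of the citric acid cycle, by 0.46 and 0.58, and Oat, ornithine aminotransferase, by 0.57 and 0.93. Hadha, of fatty acid oxidation, fell (-0.36 and -0.45, limma adjusted p = 0.011 and 0.0012). The median of the 7 members lay below the medians of this list in both knockouts. Sertoli cell markers rose in the same libraries (medians 0.56 and 1.03), and their part in these changes was not tested.

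Relatives of the members outside the matrix were measured for comparison. Of 22 such genes, 3 rose, 7 fell and 12 were not called in ClpP cKO (median -0.11), and 5 rose, 12 fell and 5 were not called in ClpX cKO (median -0.20). Hspa1l, an Hsp70 of spermatids, fell from 46.1 ± 15.9 to 18.5 ± 4.15 and 7.52 ± 2.57 FPKM (-1.23 and -2.44, limma adjusted p = 0.016 and 0.00047). Hspa14, a ribosome-bound Hsp70, rose by 0.59 in both. Dnaja4, a cytosolic DnaJ protein, fell in both (-0.88 and -1.51, limma adjusted p = 0.014 and 0.00057), as did Cct7, a subunit of the cytosolic chaperonin (-0.33 and -0.49). Lonp2, the peroxisomal Lon protease, rose by 0.22 and 0.38 (limma adjusted p = 0.037 and 0.002). Hspa5, the Hsp70 of the endoplasmic reticulum, was called in ClpX cKO (0.29, adjusted p = 0.011) and was at 0.06 in ClpP cKO (adjusted p = 0.54). Hspa8, the constitutive cytosolic Hsp70, rose in ClpX cKO (0.64, limma adjusted p = 0.0085) and was at 0.29 in ClpP cKO (adjusted p = 0.17). In the direct comparison of the knockouts 0 of the 22 were called by limma, where 0.104% of all tested genes were. With so few calls of any kind, that count does not decide whether these changes differ.

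Of 14 regulators tied to mitochondrial protein stress, 3 rose in ClpP cKO (median 0.12) and 6 rose and 1 fell in ClpX cKO (median 0.12). Those counts of increases are near the shares of all protein-coding genes called higher (25.8% and 40.1%). Atf4, the transcription factor of the integrated stress response, stood at 18.4, 18.2 and 18.1 FPKM in the control libraries, 27.3, 26.2 and 26.3 after ClpP deletion and 26.1, 33.2 and 32.9 after ClpX deletion. It rose by 0.52 and 0.72 (limma adjusted p = 0.0086 and 0.00048). Foxo3 rose by 0.44 and 0.83 and Cebpb by 0.64 and 0.62, both transcription factors. Atf5, described as a regulator of the mammalian response, was not called (-0.09 and 0.03, limma adjusted p = 0.56 and 0.82). Ddit3, which encodes CHOP, was not called in ClpP cKO (-0.08, adjusted p = 0.30) and fell in ClpX cKO (-0.21, adjusted p = 0.018). RNA levels of these factors do not measure their translation or activity.

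Pearson's r over the 9 libraries, on log2(FPKM + 1), described which genes had the most similar pattern, and the 3 groups, the scaling and the mix of cells are shared by all of them. Between members, r was 0.97 for Hspd1 and Lonp1, 0.90 for Hspd1 and Dnaja3, 0.78 for Hspd1 and Hspe1 and -0.63 for Hspd1 and Hspa9. Tested protein-coding genes closest to the mean of the members were Rpp14, Fam193b and Eri3 (r = 0.98 each) and Nhlrc2 and Spata13 (0.97 each). For single members the closest was F11r for Hspd1 and Tbk1 for Lonp1 (both 1.00), Dgcr8 for Dnaja3 (0.99), Cox6b1 for Hspe1 (0.97), Zfp41 for Hspa9 (0.95), Ick for Grpel1 (0.95) and Ighmbp2 for Trap1 (0.91).

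The scaling between libraries decided how many of the 7 were called. Scaled to each library's own total of gene reads, all 7 were called higher in both knockouts, and limma voom on the recovered reads also called 7 and 7. Of all tested genes these fits called 48.6% (own totals) and 50.9% (voom) in ClpP cKO, and 67.4% and 67.3% in ClpX cKO. Under own totals the median of all tested genes itself moved to 0.16 in ClpP cKO and 0.18 in ClpX cKO, and Hspa9 (0.16 and 0.15) and Trap1 (0.20 and 0.19) sat near that median. Hspd1 (0.77 and 1.11) and Lonp1 (0.74 and 1.01) stood above it. Quantile normalization called 5 and 6, where it called 38.7% and 63.6% of all genes, and put Hspa9 at 0.35 and 0.43, above its median for all genes of 0.07 and 0.09. Hspa9 thus changed sign with the scaling, as did Trap1 in ClpX cKO. Hspd1, Lonp1, Dnaja3, Hspe1 and Grpel1 were above 0 against control under each scaling run, and Hspd1, Lonp1 and Dnaja3 were also called under each. Median-of-ratios scaling, also run, had the same factor for every library and so nearly repeated the fit as deposited. The share of increases among all calls was 46.3% in ClpP cKO and 49.0% in ClpX cKO as deposited, 71.4% and 63.3% with own totals, 70.1% and 63.3% with voom, and 58.5% and 57.3% after quantile normalization.

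**Figure D5:**
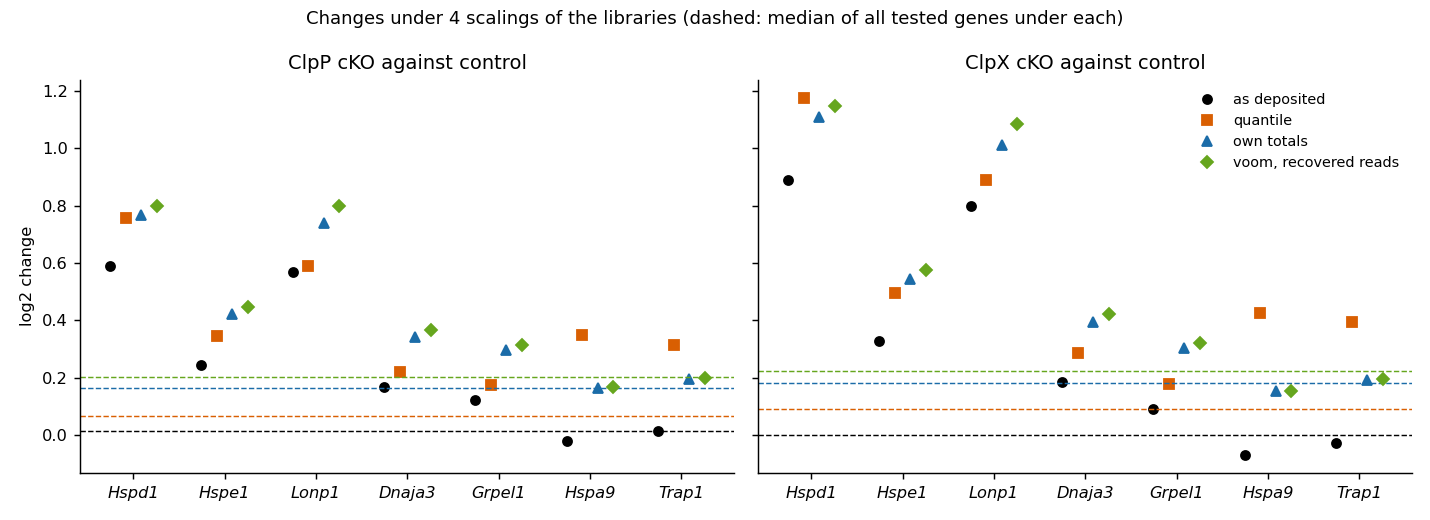
Log2 change against control (y axis) of the 7 genes under 4 scalings of the libraries, ClpP cKO on the left and ClpX cKO on the right, with a dashed line at the median of all tested genes under each scaling. Hspd1 and Lonp1 lie above every line, and Hspa9 and Trap1 lie close to the line of their own scaling except after quantile normalization.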

How the data were processed

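RNA-seq libraries were made from 1.3 ug of total RNA each with the SMARTER mRNA-Seq kit, per the labels' protocols. The authors deposited FPKM for each gene and library, with a gene length in bases as another column per the file headers. GRCm38 (mm10) is the build per the submitters' processing notes, and the aligner and counter are not given in the sources used here. FPKM times length gave whole multiples of 1 step for 100% of values (tolerance 0.01), so reads were recovered, and each library's depth and each gene's reads are known. At the lowest library counting alone gives a coefficient of variation of 1.46% for Hspa9 and 5.53% for Hspe1.

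Genes with a mean of at least 1 FPKM were fitted as log2(FPKM + 1) by limma 3.58.1 (R 4.3.3). The model held the 3 groups and all 9 libraries, left 6 residual degrees of freedom and used a trend in the variance. Benjamini-Hochberg adjusted p under 0.05, two-sided, was the threshold. A log2 change on this scale understates the change of low genes. The code was tested on simulated data. Tables were handled with pandas 2.3.3 and numpy 2.4.6 under Python 3.11.15, and plots drawn with matplotlib 3.10.9. Alternatives were a pseudocount of 0.1, no filter, a mean of at least 5 FPKM, 4 scalings or tests, fits of 6 libraries, a block for the replicate number, and left-out libraries.

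The members, lists, alternatives and tests were chosen with earlier results of these data known. All members are named. From each list and knockout, the 3 called genes with the smallest adjusted p and the called gene furthest the other way are named, plus Clpp, Clpx, Grpel2, Lonp2, Hspa5, Hspa8, Atf4, Atf5 and Ddit3. For likeness, the 5 genes nearest the members' mean and the 1 nearest each member are named. Dnlz in ClpX cKO, genes that overlap members, pseudogenes and ratios to Hspa9 were added after values were seen.

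Of the cell type lists not described elsewhere, early prophase markers had 7 called higher and 1 lower of 12 in ClpP cKO and 7 and 2 in ClpX cKO. Pachytene and diplotene markers had 6 and 9 of 12 called lower, and round spermatid markers 11 and 12 of 12. Leydig cell markers had 1 and 3 of 9 called higher, peritubular and stromal markers 2 and 6 of 9, immune markers 3 and 8 of 9, endothelial markers 0 and 1 of 3, and erythroid markers none of 4 called higher and 1 called lower in ClpX cKO.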

Additional observations from a re-analysis of the deposited data

How the results depend on the processing

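Hspd1 and Lonp1 kept their direction and their call against control in both knockouts under all 19 alternatives. Of these, median-of-ratios scaling nearly repeats the fit as deposited. Hspd1 lay between 0.55 and 0.80 in ClpP cKO and between 0.77 and 1.18 in ClpX cKO. Lonp1 lay between 0.53 and 0.80 and between 0.74 and 1.08. The count of members called was 7 in both knockouts with voom and with own totals, and 5 (ClpP cKO) and 6 (ClpX cKO) after quantile normalization. Leaving out 1 library at a time gave 2 to 3 members in ClpP cKO, 2 to 4 in ClpX cKO and 0 to 2 between the knockouts, and 2 were called between the knockouts with neither Control 3 nor ClpX cKO 1 in the fit. Over all genes, leaving out 1 library gave 3617 (ClpP cKO 2) to 8729 calls in ClpP cKO, with 4190, 4888 and 4040 without Control 1, Control 2 and ClpP cKO 3, against 7722. For ClpX cKO leave-one-out gave 9825 to 11779, and 6871 genes were called of the 9404 with at least 5 FPKM. Between the knockouts leave-one-out gave 0 to 4758 calls, 445 without Control 3 and 4758 without ClpX cKO 1, against 18 with all libraries. That count was 828 with voom, 29 after quantile normalization, 89 in a fit of the 6 libraries and 5149 without Control 3 and ClpX cKO 1. The cause of these shifts was not tested.

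Changes of sign concerned values near 0 as deposited. Quantile normalization turned Hspa9 (limma adjusted p = 0.012 and 0.0014) and Trap1 in ClpX cKO (adjusted p = 0.0014) into called increases. Own totals and voom did so as well (limma adjusted p = 0.017 to 0.046). Hspa9 was above 0 in ClpP cKO with voom (0.17), own totals (0.16) and quantile normalization (0.35), and between -0.039 and 0.0030 (without Control 2) when 1 library was left out. In ClpX cKO it was at 0.16 with voom, 0.15 with own totals and 0.43 after quantile normalization. Trap1 in ClpP cKO ranged from -0.0083 (without ClpP cKO 3) to 0.047 when 1 library was left out and was at -0.0033 with neither Control 3 nor ClpX cKO 1. In ClpX cKO it was at 0.20 with voom, 0.19 with own totals and 0.39 after quantile normalization. Between the knockouts, quantile normalization put Hspa9 at 0.077 and Trap1 at 0.079, and leave-one-out put Hspe1 between -0.047 (without ClpX cKO 3) and 0.18. Grpel1 was there at 0.0074 with voom, 0.0058 with own totals and 0.0031 after quantile normalization, and between -0.078 and 0.018 (without ClpP cKO 2) in leave-one-out. Of the log2 ratio differences between the knockouts, leave-one-out gave -0.053 to 0.038 for Hspa9 over Grpel1 (above 0 without ClpX cKO 3), -0.0069 to 0.033 for Trap1 over Hspa9 (below 0 without ClpP cKO 1 or 2) and -0.14 to 0.0030 for Lonp1 over Hspd1 (above 0 without ClpX cKO 3). Lonp1 over Hspd1 in ClpP cKO was -0.020 from FPKM + 1 and -0.042 (without Control 3) to 0.046 in leave-one-out, and in ClpX cKO -0.14 to 0.0059 (without ClpX cKO 3).

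The labels give replicate numbers 1 to 3 in each group with no statement that they pair libraries. Of 9 pairs with the same number, 4 had correlated deviations above 0.1 (range -0.07 to 0.23), and 7 of 9 libraries were closest to one with the same number. With the replicate number as a block, 7845 genes were called in ClpP cKO, 11291 in ClpX cKO and 1 between the knockouts, and 2, 3 and 0 members. Dnaja3 was the member whose call ended under the block (ClpP cKO, 0.17, limma adjusted p = 0.063). Counting noise was largest for Hspe1, at 5.53% for the 327 reads of its lowest library. Its coefficient of variation among libraries was larger in the controls (16.0%) and ClpX cKO (17.6%), though not in ClpP cKO (4.37%). The exact permutation tests of ratios cannot go below p = 0.10 with 3 libraries a group.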
